A study of Mus musculus with 32 samples.

Results

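The comparison was between the hypothalamus and the liver of healthy adult mice, with no disease or treatment in either group. It used the control (CTL) libraries only, chosen by their labelled tissue and genotype: 4 of hypothalamus and 6 of liver, 10 of the 32 libraries of the series. All 10 came from C57BL/6 mice aged 200 days that carried no muscle deletion of Cox10, the gene for a factor that assembles cytochrome c oxidase. The series also holds calf muscle, and knockout (KO) mice in which Cre from the Myl1 locus deletes floxed Cox10 in skeletal muscle fibres. The hypothalamus libraries were all labelled male, whereas the liver libraries were labelled 3 female and 3 male. The libraries were made by QuantSeq, a 3′ mRNA method that yields about a tag per transcript, and the values are raw counts of reads per gene. Neither the labels nor the methods name the number of mice behind the hypothalamus libraries, and p-values measure the spread between these libraries only.

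The hypothalamus libraries held 4070847 to 22321322 counts and the liver libraries 1955599 to 16044634, the library numbered 1 being the deepest in each tissue. Levels are given as CPM, the counts of a gene per 1e6 counts, over library totals scaled by edgeR's TMM factors, and intervals and limits cover counting error only. The transcripts that mark sex in mice did not match the label in liver 1 (labelled female) and liver 4 (labelled male), whereas they matched in the other 8 libraries. Mup20, a urinary protein gene made mainly by male liver, stood at 2934, 7.43, 5.89, 45.5, 1923 and 2492 CPM in liver 1 to 6, so that liver 1, 5 and 6 were high and liver 2, 3 and 4 low. Mup genes are near-identical copies, and their counts are uncertain. Among genes of at least 10 CPM on average, hypothalamus 1 was the highest of its 4 libraries for 38.7% of genes. Hypothalamus 1 and 4 stood far from the other hypothalamus libraries for 4.45% and 1.99% of genes. Liver 3 and liver 4 stood far from the other liver libraries for 2.36% and 2.13% of genes. Cox10 itself was at 50.8, 58.6, 56.5 and 33.6 CPM in hypothalamus 1 to 4 and at 36.1 to 63.4 CPM in liver, and the groups overlapped (log2 fold change 0.18 ± 0.24, edgeR adjusted p = 0.526). Of 18 sex-biased liver genes 8 passed the expression filter, and all 8 were higher in liver than in hypothalamus, beside 30.6% of all genes tested. The list summed to 12.2 to 21.0 CPM in hypothalamus and 1570 to 9689 CPM in liver. Its members thus passed the filter through liver, and their direction was fixed by that.

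The hypothalamus sits below the thalamus around the third ventricle and controls feeding, body temperature, water balance, stress and reproduction. Its neurons release peptides from dense-core vesicles, some into the blood through the pituitary, and are surrounded by astrocytes, myelin-forming oligodendrocytes, microglia and, along the ventricle, tanycytes. The liver is built mainly of hepatocytes, which make most plasma proteins, clear ammonia as urea, release glucose, make bile acids and ketone bodies and oxidise drugs. Kupffer cells, the liver's resident macrophages, and a fenestrated sinusoidal endothelium line its vessels.

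The tissues differed for most of the genes that could be tested. Of 13759 genes, 5345 (38.8%) were called higher in hypothalamus and 4215 (30.6%) higher in liver by edgeR's quasi-likelihood test (two-sided, Benjamini-Hochberg adjusted p below 0.05). A difference past 2-fold was called for 3980 genes (28.9%) toward hypothalamus and for 2755 (20.0%) toward liver. The log2 fold change, given throughout as hypothalamus minus liver with its standard error (SE), was above 10 for 322 called genes and below -10 for 287. No count at all was seen in the 6 liver libraries for 548 genes called higher in hypothalamus, and none in the 4 hypothalamus libraries for 177 genes called higher in liver. A gene nearly absent from a tissue could pass the expression filter only through the other, so its direction was fixed. This holds for such members of every list below, whose counts beside the share of all genes are description only. With total counts alone, without TMM factors, the split was 7740 to 2587, the median of all genes moving from 0.18 to 1.02 on the log2 scale, whereas with RLE factors, which moved the median by 0.13, it was 5662 to 3920. Small differences between the tissues therefore depended on the scaling, and their direction is stated with that limit where it flipped. Without liver 1 and 4, 5008 genes were called higher in hypothalamus and 3910 higher in liver.

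Liver RNA was concentrated in few genes. The 10 genes with the most counts took 25.5% to 31.0% of the counts of a liver library and 16.1% to 17.7% of a hypothalamus library, and the ranges did not overlap. At an equal depth of 1955599 counts, 13285 to 14836 genes had a count in liver and 17034 to 17754 in hypothalamus. In the plot of mean levels, genes of hepatocytes and of neurons lay near the axes, and the ribosomal protein genes lay nearer the diagonal, below it.

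**Figure D1:**
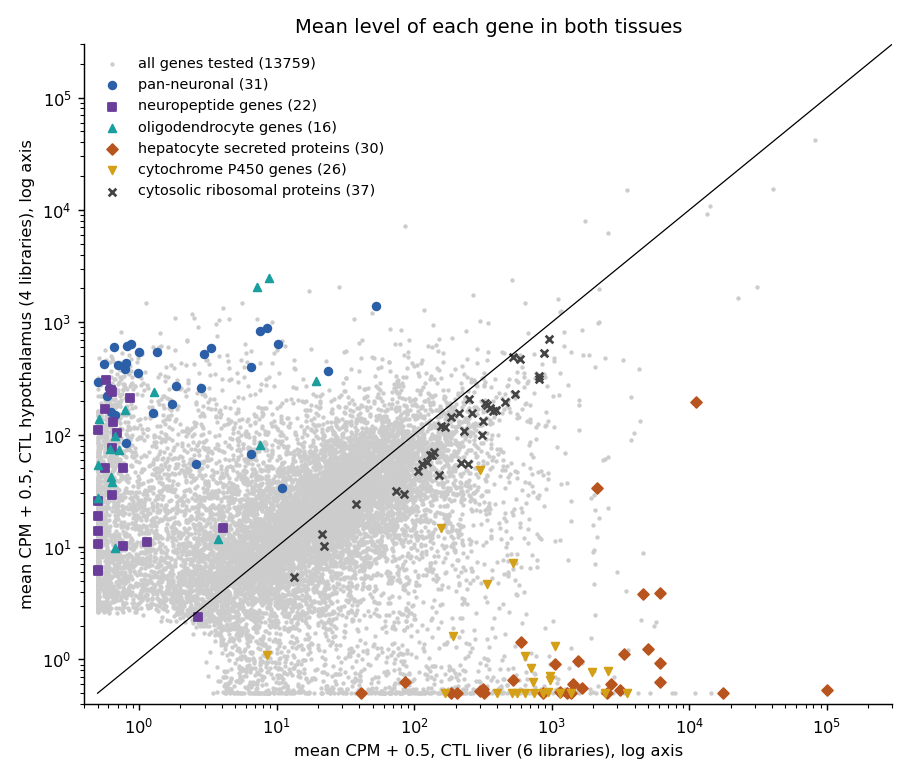
Mean CPM + 0.5 of each of 13759 genes tested in the 6 CTL liver libraries (horizontal, log axis) against the 4 CTL hypothalamus libraries (vertical, log axis), with the diagonal of equal levels. Secreted hepatocyte proteins and cytochrome P450 genes lie along the horizontal axis, and pan-neuronal, neuropeptide and oligodendrocyte genes along the vertical axis.

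Genes shared by most neurons were high in hypothalamus and near 0 in liver. All 31 pan-neuronal genes tested were called higher in hypothalamus, against 38.8% of all genes tested, with a median log2 fold change of 8.41 beside 0.18 for all genes. All 31 were also higher in each hypothalamus library than in any liver library, against 34.2% of genes. Snap25, a membrane protein of the synaptic vesicle fusion complex, was at 443, 430.1, 587 and 1088 CPM in hypothalamus 1 to 4 and at 0 to 1.00 CPM with a median of 0.232 CPM in liver. Hypothalamus 4 was the highest, and no library of one tissue reached the range of the other (log2 fold change 10.13 ± 0.57, adjusted p = 1.53e-09, exact permutation p = 0.00476, the smallest that 4 against 6 libraries allow). Elavl3, a neuronal RNA-binding protein, was at 270.5, 276, 291 and 340.2 CPM and had no count in the 6 liver libraries, which makes it at least 2204-fold higher in hypothalamus when 3 counts are set as the limit over the liver libraries. Nrgn, a postsynaptic calmodulin-binding protein, stood at 563, 912, 1136 and 741 CPM against 4.01 to 12.3 CPM. Not all members were near 0 in liver. Syt1, the calcium sensor of vesicle release, was at 1657, 1193, 1279 and 1443 CPM in hypothalamus and still at 34.2 to 80.8 CPM with a median of 52.7 CPM in liver (4.75 ± 0.29, adjusted p = 4.08e-09). Tubb3, the remaining member, had no count in any library, and a gene annotated on the same strand overlaps it. In bulk tissue, fewer cells of a type and less RNA per cell cannot be told apart.

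Both fast transmitter systems of the hypothalamus were measured. All 16 GABA genes and all 17 glutamate genes were called higher in hypothalamus, against 38.8% of all genes tested. Their median log2 fold changes were 9.35 and 10.54 (10.20 with genes at 0 in liver set to their bounds). The glutamate list summed to 28.8 to 38.0 CPM in liver, and the filter fixed the direction of members nearly absent there. Gad1 and Gad2, the enzymes that make GABA, were at 114, 111, 114 and 329 CPM and 147, 122, 104 and 192 CPM in hypothalamus 1 to 4, hypothalamus 4 being the highest for each. Liver stayed at or below 0.745 CPM for both, and the groups did not overlap (9.80 ± 0.55, adjusted p = 1.67e-09, and 9.48 ± 0.50, adjusted p = 9.11e-10). The vesicular glutamate transporter of hypothalamic neurons, Slc17a6, varied little, from 167 to 203 CPM, and had 1 count in all liver libraries, a ratio of 4504-fold (95% interval 808 to 177901). Slc17a7, the transporter better known from the cerebral cortex, was more uneven among the libraries, at 37.9, 78.0, 99.6 and 27.9 CPM. Gabbr2, a subunit of the metabotropic GABA receptor, was a member with a clear liver level, at 18.2 to 92.8 CPM with a median of 56.5 CPM in liver against 340.5 to 472 CPM in hypothalamus (2.84 ± 0.36, adjusted p = 7.05e-06). The other receptor subunit, Gabbr1, was at 2.09 to 5.11 CPM in liver.

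Among 20 genes of voltage-gated sodium, potassium and calcium channels all were called higher in hypothalamus, against 38.8% of all genes tested. Their median log2 fold change was 9.85 (9.31 with bounds). The channel list summed to 25.1 to 41.3 CPM in liver, and the filter fixed the direction of members nearly absent there. Kcnd2, a transient potassium channel, was at 848, 472, 415 and 383 CPM against 0 to 0.585 CPM, hypothalamus 1 being well above the other 3 (10.49 ± 0.51, adjusted p = 4.61e-10). For 14 of the 20 channel genes and 14 of the 17 glutamate genes hypothalamus 1 was the highest of its 4 libraries. Its part in the result was not tested beyond leaving it out, which kept all 20 and all 17 calls.

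Genes of the monoamine and acetylcholine systems were split. Of 13 tested, 10 were called higher in hypothalamus, against 38.8% of all genes tested. Ddc and Maob were called higher in liver, and Hdc was not called. Th, the enzyme that commits tyrosine to dopamine synthesis, was at 13.2, 27.9, 39.4 and 22.2 CPM in hypothalamus with 2 counts in liver, a ratio of 230-fold (95% interval 63.4 to 1900). Ddc, the next enzyme of that pathway, went the other way, at 22.7, 35.6, 36.8 and 26.4 CPM in hypothalamus and 63.3 to 426 CPM with a median of 294 CPM in liver, without overlap (-3.19 ± 0.44, adjusted p = 1.58e-05). Maob, which degrades monoamines at the mitochondrial surface, was likewise higher in every liver library, at 198 to 486 CPM against 30.3 to 44.4 CPM (-3.14 ± 0.30, adjusted p = 3.98e-07). Hdc, the histamine-making enzyme of the tuberomammillary nucleus, was low in both tissues, at 3.16, 5.15, 4.05 and 3.17 CPM against 1.32 to 5.11 CPM, and the groups overlapped (0.29 ± 0.36, adjusted p = 0.489). Chat, the acetylcholine-making enzyme, and Htr2c, a serotonin receptor of feeding circuits, had no count in liver. They stood at 18.5 to 22.7 and 60.7 to 152 CPM in hypothalamus, at least 152-fold and at least 953-fold higher.

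The tested precursors of peptide hormones and neuropeptides were present in every hypothalamus library and, apart from Gnrh1, nearly absent from liver. Of 22 neuropeptide genes that passed the expression filter, 21 were called higher in hypothalamus, against 38.8% of all genes tested, and Gnrh1 was not called. The median log2 fold change of the list was 9.28 (7.83 with bounds). The list summed to 1.32 to 13.9 CPM in liver. Members nearly absent there passed the filter through hypothalamus, and their direction was fixed by that. A further 7 listed precursors were too low to test. Among them Kiss1 and Rln3 had no count in either tissue, and a gene annotated on the same strand overlaps Kiss1. Oxt, the precursor of oxytocin, was at 151, 173, 429.8 and 478 CPM in hypothalamus 1 to 4 and at no more than 0.373 CPM in liver, a ratio of 2693-fold (95% interval 745 to 22236). Avp, the precursor of vasopressin made by neighbouring magnocellular neurons, was at 112, 149.7, 207 and 201 CPM, a ratio of 1641-fold (95% interval 454 to 13549). For both genes hypothalamus 3 and 4 were the higher libraries and hypothalamus 1 the lowest, and no liver library came near. Pmch, the precursor of melanin-concentrating hormone, and Hcrt, that of the orexins, mark neurons of the lateral hypothalamus. They stood at 119, 458, 216 and 195 CPM and 45.1, 219, 111 and 60.4 CPM. Hypothalamus 2 was the highest and hypothalamus 1 the lowest for both, and Hcrt had no count in liver (at least 616-fold higher).

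Peptides of the arcuate nucleus and releasing hormones were seen as well. Npy, a peptide that drives feeding, was at 52.3, 106, 92.0 and 54.4 CPM, a ratio of 760-fold (95% interval 210 to 6274) over liver. Pomc, the precursor of the satiety peptide alpha-MSH, was at 3.69, 19.2, 7.29 and 8.35 CPM against 0 to 0.933 CPM, with hypothalamus 2 far above the other 3 (4.90 ± 0.67, adjusted p = 1.37e-05). Agrp, which is made by the same neurons as Npy, did not pass the filter, at 2.18, 3.48, 2.43 and 1.34 CPM, although each hypothalamus library was above each liver library. Crh and Trh, the releasing hormones of the stress and thyroid axes, had no count in liver and stood at 8.46 to 11.9 and 3.84 to 6.78 CPM (at least 73.1-fold and at least 49.0-fold higher). Gnrh1, the releasing hormone of the reproductive axis, was at 1.58, 1.06, 2.92 and 2.00 CPM in hypothalamus and 0.501 to 5.91 CPM in liver, and the groups overlapped (-0.21 ± 0.63, adjusted p = 0.776). Sst and Cck, peptides made in many brain regions, were at 143 to 267 and 165 to 349 CPM.

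The 4 hypothalamus libraries did not hold these peptides in equal amounts. The summed level of the list was 1089 CPM in the lowest library and 2137 CPM in the highest, and hypothalamus 1 was the lowest of the 4 for 18 of the 22 precursors tested. It was the lowest for 16 of the 31 pan-neuronal genes. In the plot of precursor levels, the hypothalamus libraries spread over up to several-fold for Hcrt, Pmch and Pomc, and all of them stayed above liver except for Gnrh1. The share of each nucleus in a dissection is not in the labels, and its part in the spread was not tested.

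**Figure D2:**
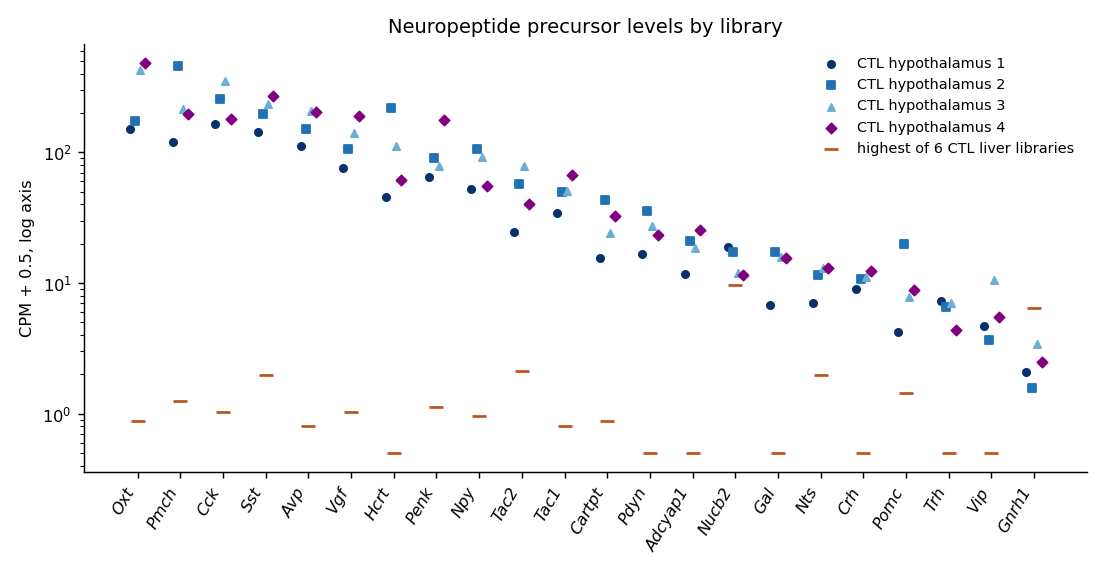
CPM + 0.5 (log axis) of the 22 neuropeptide precursor genes tested, ordered by mean level, with a symbol for each of the 4 CTL hypothalamus libraries and a bar for the highest of the 6 CTL liver libraries. Hypothalamus 1 is the lowest of the 4 for 18 of the 22 genes, and only Gnrh1 overlaps with liver.

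The machinery that packs and cuts these peptides followed. All 17 dense-core vesicle genes were called higher in hypothalamus, against 38.8% of all genes tested, with a median log2 fold change of 9.96. They summed to 17.8 to 30.2 CPM in liver, and the filter fixed the direction of members nearly absent there. Cpe, which trims peptides after cleavage, was at 945, 1265, 1270.2 and 845 CPM against 0.535 to 2.24 CPM in liver, without overlap (9.71 ± 0.38, adjusted p = 1.71e-10). Pcsk2, a prohormone convertase, was at 179 to 223 CPM with 5 counts in liver (9.70 ± 0.43), and Pcsk1, the other convertase, at 6.06 to 12.02 CPM, a ratio of 213-fold (95% interval 38.1 to 8438). The granins Chga and Chgb, the bulk proteins of the vesicle core, were at 103, 93.2, 78.9 and 64.3 CPM and 136, 159.5, 185 and 182 CPM. Chga had no count in liver (at least 732-fold higher) and Chgb had 3 (1179-fold (95% interval 403 to 5720)). Scg2, a further granin, was at 219, 193, 192 and 428 CPM, hypothalamus 4 being the highest (1856-fold (95% interval 635 to 9001)).

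The promoters of Sst, Scg2 and Chgb are shown because all 3 hold the palindrome TGACGTCA, the cyclic AMP response element bound by CREB, close to the start of transcription. Each window runs from 110 bases before the start to 10 after it on the gene's strand, with the element in capitals, from RefSeq on GRCm38.p6.
Sst: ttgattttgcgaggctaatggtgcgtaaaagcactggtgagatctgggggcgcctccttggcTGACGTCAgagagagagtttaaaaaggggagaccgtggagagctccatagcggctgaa
Scg2: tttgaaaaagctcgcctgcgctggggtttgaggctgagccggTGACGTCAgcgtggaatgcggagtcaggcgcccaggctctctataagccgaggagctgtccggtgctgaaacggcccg
Chgb: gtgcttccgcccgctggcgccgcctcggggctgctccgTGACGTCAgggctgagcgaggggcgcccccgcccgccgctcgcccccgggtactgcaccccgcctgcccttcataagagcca
The windows lie at chr16:23890835-23890954 on the minus strand, chr1:79440017-79440136 on the minus strand and chr2:132781532-132781651 on the plus strand. The element begins 48 bases before the start in Sst, 68 in Scg2 and 72 in Chgb. It was found, in either orientation, in 21.4% of 14 dense-core vesicle promoters (250 bases before to 50 after the start) and in 11.1% of 18 neuropeptide promoters. Of all 10602 promoters of tested genes 3.15% held it, with 2.92% among genes past 2-fold toward hypothalamus and 1.65% among those past 2-fold toward liver. These shares describe letters in a window and carry no test.

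Of 29 transcription factor genes listed for the hypothalamus, 17 passed the filter. All 17 were called higher in hypothalamus, against 38.8% of all genes tested. The list also holds Tbr1 and Neurod6, described below, which are not particular to the hypothalamus. The list summed to 0.660 to 3.75 CPM in liver and 397 to 506 CPM in hypothalamus. Its members thus passed the filter through hypothalamus, and their direction was fixed by that. Their median log2 fold change was 7.88 (6.28 with bounds). Six3, a homeodomain factor of the developing forebrain that persists in the adult hypothalamus, was at 284, 163, 137 and 183 CPM with 1 count in liver (5529-fold (95% interval 992 to 218396)). Otp and Sim1, needed for the neurons that make oxytocin and vasopressin, were at 7.29 to 18.9 and 3.48 to 9.30 CPM, against no more than 0.373 and 0.464 CPM in liver. Nkx2-1, a defining factor of the ventral hypothalamus, was too low to test at 0.537, 0.455, 0.162 and 0.668 CPM in hypothalamus and had no count in liver. Tbr1 and Neurod6, better known from neurons of the cerebral cortex, were at 8.19, 11.4, 13.4 and 21.9 CPM and 6.72, 5.91, 17.2 and 8.52 CPM in hypothalamus. Drd1, a dopamine receptor of the striatum and other regions, was at 24.9, 19.2, 9.23 and 17.2 CPM. Whether tissue next to the hypothalamus was taken along was not tested.

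Astrocyte genes were higher in hypothalamus, with exceptions known from hepatocytes. Of 16 tested, 12 were called higher in hypothalamus, against 38.8% of all genes tested. Aldh1l1 and Agt were called higher in liver, and Slc4a4 and Fgfr3 were not called. The median log2 fold change of the list was 5.68. Sparcl1, a secreted matrix protein of astrocytes, was at 2417, 2099, 1537 and 1515 CPM against 8.70 to 28.8 CPM (6.83 ± 0.38, adjusted p = 1.41e-09). Gfap, the astrocyte intermediate filament, was at 45.2, 58.8, 67.6 and 69.5 CPM against 0 to 1.59 CPM (5.95 ± 0.46, adjusted p = 3.89e-08). Slc1a2, the main glutamate transporter of astrocytes, was at 1066, 849, 936 and 1095 CPM in hypothalamus but also at 205 to 594 CPM with a median of 302 CPM in liver. The groups stayed apart, with a smaller difference of 1.53 ± 0.29 (adjusted p = 0.000291). Aldh1l1, a folate enzyme much used as an astrocyte marker, was at 7.35 to 11.97 CPM in hypothalamus and at 199 to 803 CPM with a median of 428 CPM in liver (-5.50 ± 0.43, adjusted p = 4.68e-08). Agt, the precursor of angiotensin, was at 49.8 to 68.0 CPM against 253 to 706 CPM in liver (-2.91 ± 0.32, adjusted p = 1.48e-06). As markers of astrocytes against hepatocytes these 2 genes thus ran opposite to the list.

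Myelin genes were high and uneven in hypothalamus. All 16 oligodendrocyte genes were called higher there, against 38.8% of all genes tested, with a median log2 fold change of 8.58 (8.40 with bounds). Mbp, myelin basic protein, was at 1985, 2243, 2412 and 3196 CPM against 3.30 to 16.1 CPM (8.24 ± 0.51, adjusted p = 4.06e-09). Mog, of the outer myelin sheath, varied little at 51.8, 50.6, 50.4 and 58.9 CPM and had no count in liver (at least 408-fold higher). The summed level of the list ran from 4251 to 9293 CPM over the hypothalamus libraries and from 31.7 to 71.5 CPM over the liver libraries. Pdgfra, a receptor of oligodendrocyte precursors that liver fibroblasts also carry, was called although its groups overlapped, at 9.57, 6.97, 10.4 and 18.5 CPM against 0 to 8.08 CPM (1.70 ± 0.51, adjusted p = 0.00814). That call was lost with labelled sex as a term (adjusted p = 0.0664) and among males whose transcripts matched the label (0.0644).

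Genes of cells that line the third ventricle were divided. Of 11 tanycyte and ependymal genes tested, 8 were called higher in hypothalamus, against 38.8% of all genes tested. Rarres2 and Tm4sf1 were called higher in liver and Vim was not called. With total counts alone the Tm4sf1 call was lost (adjusted p = 0.154). Dio2, the deiodinase with which tanycytes activate thyroid hormone, was at 12.8, 14.1, 20.6 and 18.9 CPM with 1 count in liver (345-fold (95% interval 61.7 to 13638)). Crym, a thyroid hormone-binding protein, was at 9.98, 11.8, 5.83 and 6.68 CPM against 0.373 to 2.18 CPM (2.73 ± 0.43, adjusted p = 5.25e-05). Rarres2, which encodes the secreted adipokine chemerin, was at 9.47 to 15.5 CPM in hypothalamus and 200.3 to 1085 CPM with a median of 876 CPM in liver (-5.97 ± 0.49, adjusted p = 7.58e-08). Vim, an intermediate filament of many cell types, differed by less than its spread, with means of 29.4 ± 3.76 CPM (SD, n = 4) and 29.2 ± 8.68 CPM (SD, n = 6).

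Genes of the resident macrophages were compared by list. Of 10 microglia genes 7 were called higher in hypothalamus, against 38.8% of all genes tested. Sall1 and Csf1r were called higher in liver and Olfml3 was not called. Cx3cr1, the fractalkine receptor of microglia, was at 54.5, 76.5, 76.5 and 69.0 CPM against 3.42 to 13.9 CPM (3.00 ± 0.37, adjusted p = 4.99e-06), and Tmem119 at 10.8, 16.5, 19.3 and 14.5 CPM against 0.251 to 3.30 CPM (3.12 ± 0.50, adjusted p = 6.81e-05). All 9 Kupffer cell genes tested were called higher in liver, against 30.6% of all genes tested, with a median log2 fold change of -11.13 (-9.69 with bounds). Clec4f, a lectin that marks Kupffer cells, was at 40.1, 103, 102, 88.5, 31.3 and 27.4 CPM in liver 1 to 6 and had no count in hypothalamus (at least 827-fold higher in liver), and Vsig4, a complement receptor, was at 54.4 to 166 CPM in liver and also without a count (at least 1360-fold higher). The summed level of the Kupffer list was 576 to 1225 CPM in liver and 3.56 to 7.85 CPM in hypothalamus, whereas that of the microglia list overlapped, at 198 to 286 CPM in hypothalamus and 97.0 to 361 CPM in liver. Kupffer members nearly absent from hypothalamus passed the filter through liver, and their direction was fixed by that.

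The 10 genes that most tissue macrophages share were uneven among livers. Of them 8 were called higher in liver, against 30.6% of all genes tested, and none in hypothalamus. Laptm5 and Ctss were not called, and the median log2 fold change of the list was -1.60. C1qa, a chain of the first complement component, was at 20.1, 42.1, 54.8 and 48.8 CPM in hypothalamus and 74.6, 192, 196, 112, 123 and 57.5 CPM in liver 1 to 6, without overlap (-1.60 ± 0.39, adjusted p = 0.00221), a call lost with total counts alone (adjusted p = 0.0991). Csf1r, the receptor that macrophages need to survive, was at 67.2, 93.3, 98.2 and 88.8 CPM and 99.9, 287, 279, 167, 124 and 56.3 CPM, and here the groups overlapped (-0.96 ± 0.40, adjusted p = 0.0451). That call was lost without any of liver 2, 3 and 4 or of hypothalamus 1 to 4 (adjusted p = 0.0583 to 0.126). All 10 genes were lowest in liver 6, and 9 of the 10 were highest in liver 3. Among males whose transcripts matched the label, hypothalamus 1 to 4 against liver 5 and 6, the count fell to 2, and with total counts alone to 3. Without liver 1 and 4 it was 9 and without liver 3 it was 7. In the KO libraries none of the 10 was called in that direction.

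Vessel genes also divided by tissue. Of 10 genes of brain endothelium 7 were called higher in hypothalamus, against 38.8% of all genes tested. Slco1a4 and Mfsd2a were called higher in liver and Bsg was not called. Slco1c1, a thyroxine carrier of the blood-brain barrier, was at 37.1, 28.8, 37.3 and 33.1 CPM against 0 to 0.418 CPM (7.08 ± 0.44, adjusted p = 4.17e-09). Mfsd2a, a lysolipid carrier of the same barrier that liver also uses, was at 10.01, 13.5, 20.6 and 24.0 CPM in hypothalamus and 29.8, 87.8, 12.9, 85.2, 395 and 19.3 CPM in liver 1 to 6, with liver 5 far above the rest and overlapping groups (-2.63 ± 0.84, adjusted p = 0.0122). With total counts alone the calls of Mfsd2a and Slco1a4 were lost (adjusted p = 0.0608 and 0.0725). All 10 genes of the liver sinusoidal endothelium were called higher in liver, against 30.6% of all genes tested, with a median log2 fold change of -4.97. Stab2, a scavenger receptor that clears hyaluronan, was at 0.873, 0.455, 0.324 and 0.835 CPM against 63.2 to 115 CPM (-6.89 ± 0.38, adjusted p = 1.41e-09), and Clec4g had no count in hypothalamus at 61.0 to 108 CPM in liver (at least 1281-fold higher).

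Genes of tissues that a dissection could bring along were measured as well. Of 11 choroid plexus genes 8 were called higher in hypothalamus, against 38.8% of all genes tested, while Ttr, Aqp1 and Prlr were called higher in liver. Folr1 and Clic6, which mark the plexus, were at 1.84 to 6.06 and 8.02 to 16.7 CPM in hypothalamus. None of 10 anterior pituitary genes passed the filter, and their summed level was at most 10.7 CPM in a hypothalamus library. Cga, the shared chain of pituitary hormones, was at 8.23, 0, 0.324 and 0 CPM, high only in hypothalamus 1 among the 4. All 5 erythrocyte genes tested were called higher in liver, against 30.6% of all genes tested. Their list summed to 420 to 1209 CPM in hypothalamus and 1774 to 19477 CPM in liver. Hbb-bs, a beta globin gene near-identical to Hbb-bt, was at 1365, 809.8, 7466, 1681, 1729.8 and 1477 CPM in liver 1 to 6, highest in liver 3 (-2.33 ± 0.62, adjusted p = 0.00409). With total counts alone 3 of these 5 genes were called, and 3 also without hypothalamus 1 or hypothalamus 4. Prlr, the prolactin receptor, varied from 14.6 to 1046 CPM among livers. Of 4 muscle genes tested 1 was called in each direction, beside 38.8% of all genes tested toward hypothalamus and 30.6% toward liver. The muscle count toward liver ranged from 0 to 4 over the alternatives. Pvalb, listed among them but also made by fast-spiking neurons, was at 103, 86.8, 113 and 132 CPM in hypothalamus (6.35 ± 0.65, adjusted p = 7.87e-07), whereas Acta1, the actin of skeletal muscle, overlapped between tissues at 3.06 to 7.68 and 0.501 to 20.9 CPM. Cela1, an elastase listed for exocrine pancreas and the only member of that list tested, was at 18.7 to 64.4 CPM in liver and 1.30 to 4.09 CPM in hypothalamus (-3.92 ± 0.47, adjusted p = 4.04e-06).

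**Figure D3:**
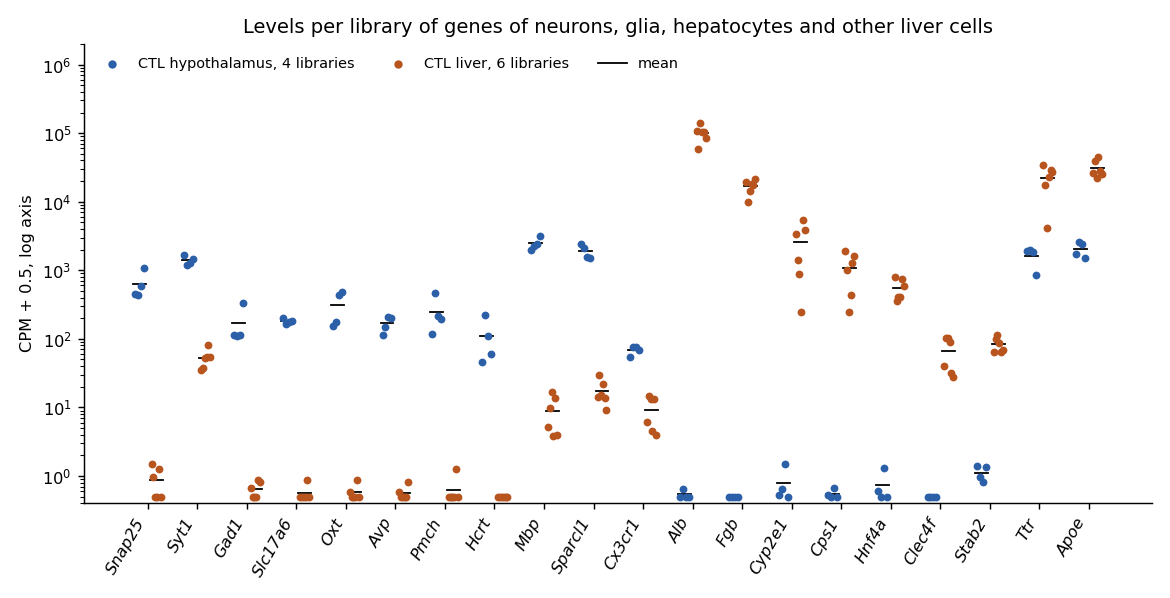
CPM + 0.5 (log axis) of 20 genes in the 4 CTL hypothalamus and 6 CTL liver libraries, a point per library and a line at the mean. Neuronal and glial genes on the left are high in hypothalamus, hepatocyte, Kupffer and sinusoidal genes on the right in liver, and Ttr and Apoe are high in both.

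The genes of proteins that hepatocytes send into the blood were far higher in liver. All 30 tested genes of secreted plasma proteins were called higher in liver, against 30.6% of all genes tested. Their median log2 fold change was -13.44 (-12.46 with bounds), and in each of the 30 the groups did not overlap, against 24.0% of all genes. Alb, serum albumin, was at 107886, 59421, 138985, 103760.0, 105462 and 83674 CPM in liver 1 to 6 and had 1 count in the 4 hypothalamus libraries against 2388243 in liver, a ratio of 4952440-fold (95% interval 888865 to 195611000). Ahsg, a fetuin, was at 13774 to 20331 CPM with a median of 18522 CPM in liver and had no count in hypothalamus (at least 280573-fold higher). Apoa1, the main protein of high-density lipoprotein, had a few counts in each hypothalamus library, at 0.772, 1.51, 0.486 and 0.167 CPM against 2854 to 7827 CPM (-12.68 ± 0.72, adjusted p = 1.83e-09). Trf, transferrin, which oligodendrocytes also make, kept a clear level in hypothalamus, at 233, 198, 174 and 179 CPM against 7540.1 to 17218 CPM in liver (-5.83 ± 0.42, adjusted p = 2.26e-08). The secreted and coagulation genes together took 15.1% to 24.1% of the counts of a liver library and 0.0346% to 0.0402% of a hypothalamus library. Apoc2 and Apoc4 had no count in any library, and a gene annotated on their strand overlaps both.

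Coagulation and complement genes followed the same pattern. All 31 tested were called higher in liver, against 30.6% of all genes tested, with a median log2 fold change of -12.42 (-12.38 with bounds). Fgb, the beta chain of fibrinogen, was at 10047 to 21109 CPM with a median of 17636 CPM in liver without a count in hypothalamus (at least 292364-fold higher), and F2, prothrombin, at 2122 to 3951 CPM, also without one (at least 42848-fold higher). C3, the central complement protein, kept a trace in each hypothalamus library at 1.88, 1.97, 1.30 and 0.835 CPM against 2462 to 8508 CPM (-11.79 ± 0.64, adjusted p = 1.24e-09). C5 had no row under its symbol.

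The promoters of Alb, Fgb and Fabp1 are shown because each holds, near the start, the letters GTTAAT, which are part of the site of HNF1, a homeodomain factor of hepatocytes. Fabp1 encodes the fatty acid-binding protein of liver and is described among the isoforms. The windows again run from 110 bases before the start to 10 after it, with the HNF1 letters in capitals and, in Fabp1, also the TATA box TATAAA.
Alb: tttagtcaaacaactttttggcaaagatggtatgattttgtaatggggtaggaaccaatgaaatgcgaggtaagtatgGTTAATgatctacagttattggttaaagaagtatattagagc
Fgb: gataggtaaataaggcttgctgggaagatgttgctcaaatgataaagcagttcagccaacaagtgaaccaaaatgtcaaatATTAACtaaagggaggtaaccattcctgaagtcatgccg
Fabp1: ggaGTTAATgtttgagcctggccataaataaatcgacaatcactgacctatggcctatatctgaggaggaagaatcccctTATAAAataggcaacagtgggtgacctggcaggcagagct
They lie at chr5:90460760-90460879 on the plus strand, chr3:83049854-83049973 on the minus strand and chr6:71199769-71199888 on the plus strand of GRCm38.p6. The letters begin 32 bases before the start in Alb, 29 in Fgb, where they read on the opposite strand as ATTAAC, and 107 in Fabp1, whose TATA box begins 30 bases before the start. Of 22 promoters of secreted plasma proteins 22.7% held GTTAAT on either strand, and of 24 coagulation and complement promoters 25.0%, beside 4.42% of all 10602. The share was 7.12% among genes past 2-fold toward liver and 4.05% among those past 2-fold toward hypothalamus. CAAAGT, letters of the HNF4 site, was in 45.5% of the secreted protein promoters and 1274 of all 10602, and the GC box GGGCGG in 4.55% and 62.8%. TATAAA stood in 57.1% of 21 cytochrome P450 promoters and in 7.50% of all. The share with TTCAGCACC, letters of the element bound by the repressor REST, was 0.755% among genes past 2-fold toward hypothalamus and 0.189% toward liver, against 0.387% of all. A match is a run of letters and not a measured site, and none of these shares was tested.

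All 26 genes of cytochrome P450 enzymes and their partner were called higher in liver, against 30.6% of all genes tested. Their median log2 fold change was -13.13 (-12.69 with bounds). Cyp2e1, which oxidises ethanol and other small molecules, was at 0.0336, 0.151, 0.972 and 0 CPM in hypothalamus and 3427, 1401, 890.4, 248, 5448 and 3897 CPM in liver 1 to 6 (-13.45 ± 1.35, adjusted p = 6.12e-07). Cyp3a11, which oxidises many drugs, was at 5644, 491, 118, 723, 7203 and 6934 CPM with no count in hypothalamus (at least 77117-fold higher). The levels among livers differed widely for both, liver 1, 5 and 6 being high and liver 2, 3 and 4 low, the same split as for Mup20. Por, the reductase that passes electrons to most of these enzymes, was the member with the smallest difference, at 44.7 to 53.8 CPM in hypothalamus and 179 to 541 CPM in liver (-2.64 ± 0.35, adjusted p = 9.61e-06). Counts of the Cyp2c and Cyp3a members are uncertain because these genes have close copies.

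Genes of ammonia disposal and amino acid breakdown were higher in liver. All 7 urea cycle genes were called higher in liver, against 30.6% of all genes tested, with a median log2 fold change of -9.58. Cps1, which fixes ammonia in the mitochondrion, was at 1923, 1026, 247, 429, 1292 and 1613 CPM in liver 1 to 6 and had 2 counts in hypothalamus (36283-fold (95% interval 10044 to 299613)), and Otc, the next enzyme, had none (at least 11409-fold higher). Ass1, Asl and the ornithine carrier Slc25a15, which serve arginine synthesis in other cells too, kept levels in hypothalamus of 9.03 to 11.4, 3.16 to 5.67 and 7.36 to 11.5 CPM, with log2 fold changes of -6.02 ± 0.60, -5.72 ± 0.34 and -5.63 ± 0.38. All 28 amino acid breakdown genes were called higher in liver, against the same 30.6%, with a median of -9.38. Gnmt, which uses up excess methyl groups, was at 1.34 to 2.75 against 1754 to 9011 CPM (-11.32 ± 0.68, adjusted p = 3.09e-09). Got1, the cytosolic aspartate aminotransferase, was the only member whose groups overlapped, at 159, 214, 305 and 376 CPM against 127 to 981 CPM (-1.26 ± 0.48, adjusted p = 0.0307). The Got1 call was lost without liver 1 and 4 (adjusted p = 0.123), and without liver 1, 4 or 5 or hypothalamus 1, 2 or 3 alone (adjusted p = 0.0551 to 0.102). Liver 3 was the lowest of the 6 livers for 20 of the 28 amino acid genes and for 5 of the 7 urea cycle genes. Leaving it out kept all of these calls.

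Genes with which hepatocytes release and take up glucose were also called higher in liver, all 16 of them, against 30.6% of all genes tested. Their median log2 fold change was -7.95. Pck1, the gatekeeper of gluconeogenesis, was at 0.0672 to 2.75 CPM in hypothalamus and 1330.1, 1230.0, 902, 407, 4917 and 2816 CPM in liver 1 to 6 (-11.02 ± 1.17, adjusted p = 1.13e-06). G6pc, the phosphatase that frees glucose, was at 0 to 0.606 CPM against 93.1 to 1052 CPM (-10.82 ± 1.03, adjusted p = 3.47e-07). Of 15 bile acid genes all were called higher in liver, against the same 30.6%, with a median of -11.66 (-11.15 with bounds). Cyp7a1, the rate-limiting enzyme of bile acid synthesis, was at 92.8 to 333 CPM with a median of 145 CPM in liver and had no count in hypothalamus (at least 2265-fold higher), whereas Cyp27a1, the sterol hydroxylase of many tissues, was at 5.58 to 8.52 CPM there (-6.30 ± 0.63, adjusted p = 6.27e-07).

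Of 6 ketone body genes 5 were called higher in liver, against 30.6% of all genes tested, and Oxct1 higher in hypothalamus. Oxct1, which the using tissues need to activate ketone bodies, was at 206, 209.5, 211 and 191 CPM in hypothalamus and 7.46 to 18.6 CPM with a median of 10.3 CPM in liver, without overlap (4.22 ± 0.28, adjusted p = 8.68e-09). Bdh1 and Acat1, which act in both directions, were called higher in liver (-3.12 ± 0.30 and -2.59 ± 0.33). Slc16a1, a carrier that lets ketone bodies and lactate through the membrane, overlapped between the tissues at 11.1 to 16.4 and 14.0 to 46.0 CPM and was called by a small margin (-0.84 ± 0.35, adjusted p = 0.0454), a call lost without liver 2, 3 or 6 or hypothalamus 2, 3 or 4 (adjusted p = 0.0554 to 0.116).

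All 21 hepatocyte transcription factors tested were called higher in liver, against 30.6% of all genes tested, with a median log2 fold change of -7.15. Hnf4a, the nuclear receptor at the centre of hepatocyte identity, was at 0.101, 0, 0.810 and 0 CPM in hypothalamus and 357 to 800.0 CPM with a median of 505 CPM in liver (-11.42 ± 0.75, adjusted p = 7.16e-09). Cebpa, which keeps metabolic genes of hepatocytes on, was at 1.01 to 2.34 against 117 to 238 CPM (-6.72 ± 0.37, adjusted p = 1.43e-09). Prox1 and Onecut2, which also act in neurons, were clearly present in hypothalamus, at 97.6, 96.5, 122 and 93.2 CPM and 39.3, 41.5, 48.4 and 36.9 CPM. They were higher still in liver, at 248 to 386 and 239 to 846 CPM (-1.57 ± 0.23 and -3.53 ± 0.41), and the groups did not overlap. The plot of the gene lists shows these members and the spread within every list.

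**Figure D4:**
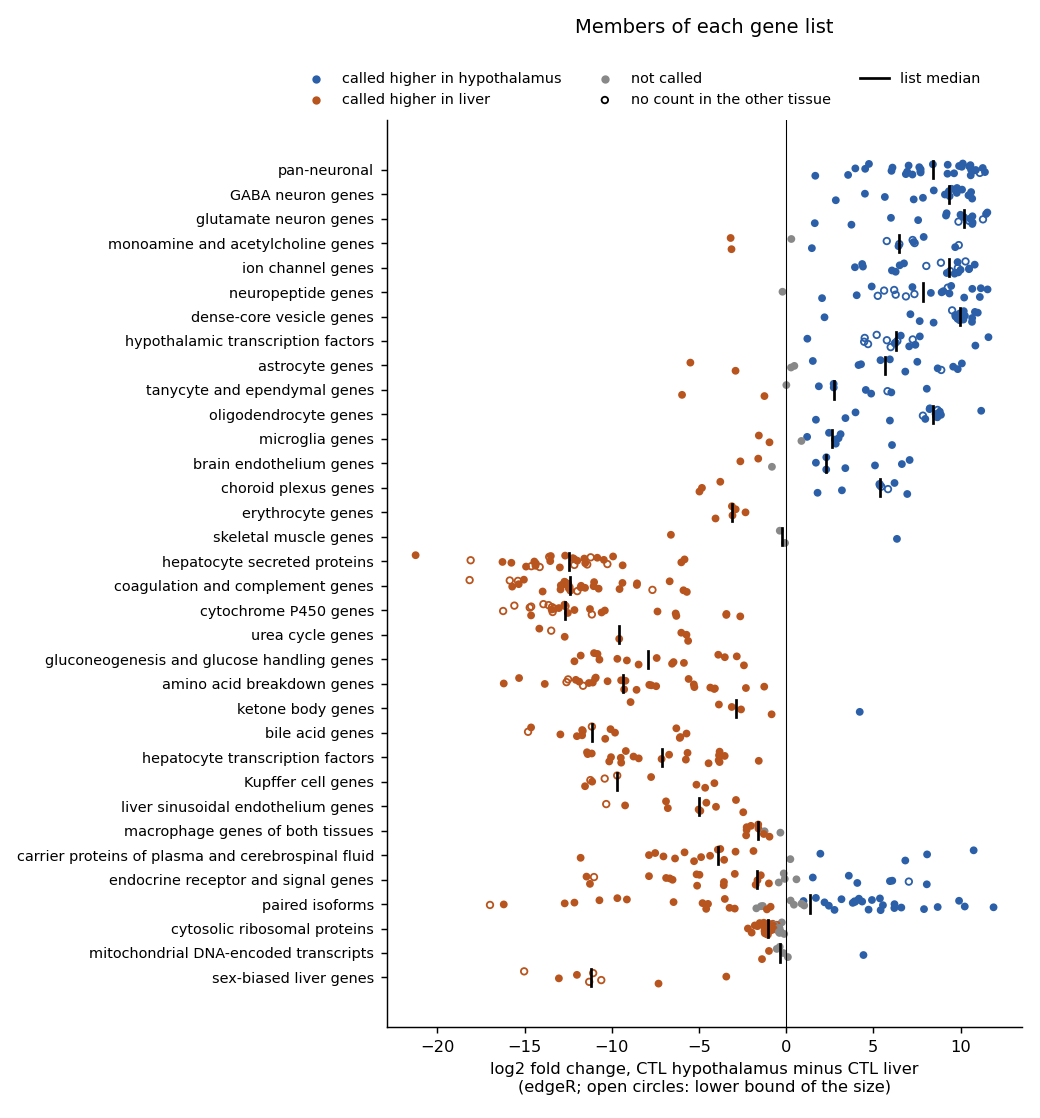
Log2 fold change (CTL hypothalamus minus CTL liver) of each tested member of the lists with at least 4 tested members, coloured by call, with open circles for members without a count in the other tissue (drawn at the lower bound of the size) and a line at each list's median. Neuronal lists lie to the right and hepatocyte lists to the left, and the isoform, carrier and endocrine lists have members on both sides.

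Several proteins of plasma are also proteins of cerebrospinal fluid. Of 19 carrier genes, 14 were called higher in liver and 4 higher in hypothalamus, beside 30.6% and 38.8% of all genes tested. Psap was not called. Ttr, the thyroxine and retinol carrier made by liver and choroid plexus, was at 1879.9, 2001, 1829 and 845 CPM in hypothalamus and 34567, 17623, 4185, 22800.4, 28582 and 27377 CPM in liver 1 to 6. Hypothalamus 4 and liver 3 were the lowest of their tissues, and the groups did not overlap (-3.78 ± 0.58, adjusted p = 4.34e-05). The plexus markers Folr1 and Clic6 were also lowest in hypothalamus 4, and their part in the Ttr level was not tested. Apoe, the lipid carrier that astrocytes and hepatocytes both make, was at 1716, 2608, 2379.8 and 1499 CPM and 21917 to 44726 CPM (-3.92 ± 0.42, adjusted p = 1.3e-06). The 4 genes higher in hypothalamus were Apod, Ptgds, Cst3 and Sparcl1. Ptgds, the prostaglandin D synthase of the meninges and oligodendrocytes, was at 989.7, 1235, 1287 and 771 CPM against 2.49 to 6.04 CPM (8.08 ± 0.35, adjusted p = 2.35e-10). Apod, an apolipoprotein of glia, was the steadiest of the 4, at 176, 184, 178 and 170.2 CPM with 2 counts in liver (2070-fold (95% interval 573 to 17095)). Cst3, cystatin C, was at 559 to 839.8 against 139 to 235 CPM (1.96 ± 0.25, adjusted p = 6.19e-06).

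The endocrine genes that link liver and hypothalamus were called in either direction. Of 28 tested, 17 were called higher in liver and 7 higher in hypothalamus, beside 30.6% and 38.8% of all genes tested, and 4 were not called, Lepr, Nr3c1 and Nr3c2 among them. Igf1, the growth factor that liver sends out under growth hormone, was at 7.51 to 10.2 CPM in hypothalamus and 942 to 2520.1 CPM with a median of 2076 CPM in liver (-7.87 ± 0.43, adjusted p = 1.25e-09). Ghr, the growth hormone receptor, was at 28.8 to 46.6 against 739 to 3530.2 CPM (-5.14 ± 0.56, adjusted p = 1.53e-06), and Gcgr, the glucagon receptor, at 112 to 151 CPM in liver with no count in hypothalamus (at least 2083-fold higher). Thra, a thyroid hormone receptor, was higher in every hypothalamus library, at 529, 822, 854 and 577 CPM against 22.4 to 77.2 CPM (4.08 ± 0.36, adjusted p = 1.55e-07). Its partner gene Thrb had overlapping groups at 52.3 to 107 and 89.4 to 198 CPM (-0.99 ± 0.29, adjusted p = 0.00792), a call lost with total counts alone (adjusted p = 0.571) and among males whose transcripts matched the label (0.173). The deiodinases Dio2 and Dio1 stood apart by tissue, Dio2 as given and Dio1 at 32.7 to 149.9 CPM in liver with 1 count in hypothalamus (3073-fold (95% interval 551 to 121465)).

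Of the receptors for feeding signals, Mc4r and Lepr had few counts in bulk hypothalamus, whereas Htr2c, given above, had 5931. Mc4r, the melanocortin receptor of satiety neurons, was at 1.91, 1.36, 1.13 and 0.501 CPM and had no count in liver, too low to be tested. Lepr, the leptin receptor, was at 3.02, 2.42, 1.62 and 1.00 CPM in hypothalamus and 0.622 to 7.92 CPM in liver, and the groups overlapped (-0.14 ± 0.61, adjusted p = 0.847). The receptors of FGF21, a hormone sent out by liver, differed by part. Klb, the obligate coreceptor, was at 0.302, 0.151, 0.648 and 0 CPM in hypothalamus and 24.6 to 35.3 CPM in liver (-6.68 ± 0.44, adjusted p = 8.35e-09). Fgfr1 was at 29.3, 28.0, 29.0 and 32.2 against 5.89 to 14.0 CPM (1.53 ± 0.25, adjusted p = 8.29e-05), and Fgfr4 at 0 to 0.486 against 9.75 to 25.3 CPM (-6.89 ± 0.63, adjusted p = 2.26e-07). Fgf21 itself had 10 counts over all liver libraries and none in hypothalamus, and was too low to be tested. Nr3c1, the glucocorticoid receptor, had means of 46.0 ± 12.7 CPM (SD, n = 4) and 48.9 ± 10.3 CPM (SD, n = 6), with a call toward hypothalamus only on total counts alone (0.73 on the log2 scale), whereas Hsd11b1, which regenerates active glucocorticoid in the cell, was at 5.91 to 9.85 against 337 to 972 CPM (-6.52 ± 0.45, adjusted p = 1.33e-08).

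Genes that serve the same metabolic step were compared as sets. Of 48 isoform genes, 25 were called higher in hypothalamus and 16 higher in liver, beside 38.8% and 30.6% of all genes tested, and 7 were not called. The share toward liver was near that of all genes. Glucose enters through Slc2a3 in neurons, at 49.8, 51.1, 60.7 and 56.9 CPM against 0 to 2.68 CPM (5.38 ± 0.38, adjusted p = 1.63e-08). In liver it passes through Slc2a2, at 0.134 to 0.909 CPM in hypothalamus and 145 to 445 CPM with a median of 314 CPM in liver (-9.68 ± 0.60, adjusted p = 4.24e-09). Hk1, the hexokinase of brain, was higher in hypothalamus (4.17 ± 0.40), and so were the aldolases Aldoa and Aldoc (3.17 ± 0.25 and 4.15 ± 0.31). Of the pyruvate kinases, Pkm was at 297, 453, 486 and 306 CPM in hypothalamus against 4.97 to 24.1 CPM (4.92 ± 0.42, adjusted p = 1.26e-07), and Pklr had 3 counts in hypothalamus against 50.6 to 215 CPM in liver (2642-fold (95% interval 903 to 12816)).

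Lactate dehydrogenase and glycogen genes were exchanged in the same manner. Ldhb, the subunit of heart and brain, was at 134, 172, 191 and 161 CPM against 0.464 to 3.73 CPM (6.20 ± 0.34, adjusted p = 1.29e-09). Ldha, the other subunit, was at 35.0, 47.6, 55.4 and 55.3 against 279 to 660.2 CPM in the opposite direction (-3.25 ± 0.30, adjusted p = 2.97e-07). Glycogen phosphorylase was Pygb in hypothalamus (3.95 ± 0.41) and Pygl in liver (-6.46 ± 0.42), and glycogen synthase Gys1 in hypothalamus (2.20 ± 0.33) and Gys2 in liver, with 1 count in hypothalamus (7420-fold (95% interval 1331 to 293140)). Each of these 6 genes had groups that did not overlap.

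Fat handling gave further pairs. Cpt1a, the gate of fatty acid oxidation, was at 7.73 to 11.8 against 141 to 409 CPM (-4.48 ± 0.35, adjusted p = 4.54e-08), and Cpt1c, its neuronal relative, at 18.5 to 32.3 against 0 to 2.64 CPM (6.21 ± 0.67, adjusted p = 1.32e-06). Fabp1 was at 3265 to 13058 CPM with a median of 7147 CPM in liver and had no count in hypothalamus (at least 130040-fold higher), whereas Fabp7, the form of astrocytes and tanycytes, was at 9.91, 15.9, 16.8 and 39.9 CPM against 0.660 to 5.85 CPM (2.45 ± 0.46, adjusted p = 0.000271).

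The genes without a call included Mat2a, Eno1 and the metallothioneins Mt1 and Mt2. Mat1a, which makes S-adenosylmethionine in hepatocytes, had 1 count in hypothalamus and 1342 to 4429.8 CPM in liver (121472-fold (95% interval 21801 to 4797970)), while Mat2a, the form of other tissues, was at 119.7 to 172 and 79.3 to 141 CPM and overlapped (0.44 ± 0.23, adjusted p = 0.102). Mt1, a metal-binding protein, spread in liver from 188, 1554, 4541, 1287, 700.1 and 22.7 CPM in liver 1 to 6, which covered the hypothalamus range of 414 to 651 CPM (-1.34 ± 0.90, adjusted p = 0.202). Mt3, the neural form, was at 49.98, 91.8, 88.3 and 69.1 CPM with 1 count in liver (1472-fold (95% interval 264 to 58170)). In CTL muscle, for orientation and on TMM factors over 16 CTL libraries, Aldoa was at 10085 ± 3989.9 CPM (SD, n = 6), Pfkm at 920.0 ± 239 CPM and Cox6a2, the muscle form of a cytochrome c oxidase subunit, at 3783 ± 1790.3 CPM. Cox6a2 was also called higher in hypothalamus than in liver, at 29.1, 36.1, 52.6 and 25.9 CPM against 0 to 4.10 CPM (4.72 ± 0.49, adjusted p = 9.66e-07), with Cox6a1 called higher in liver (-1.11 ± 0.27), a call lost with total counts alone (adjusted p = 0.392).

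**Figure D5:**
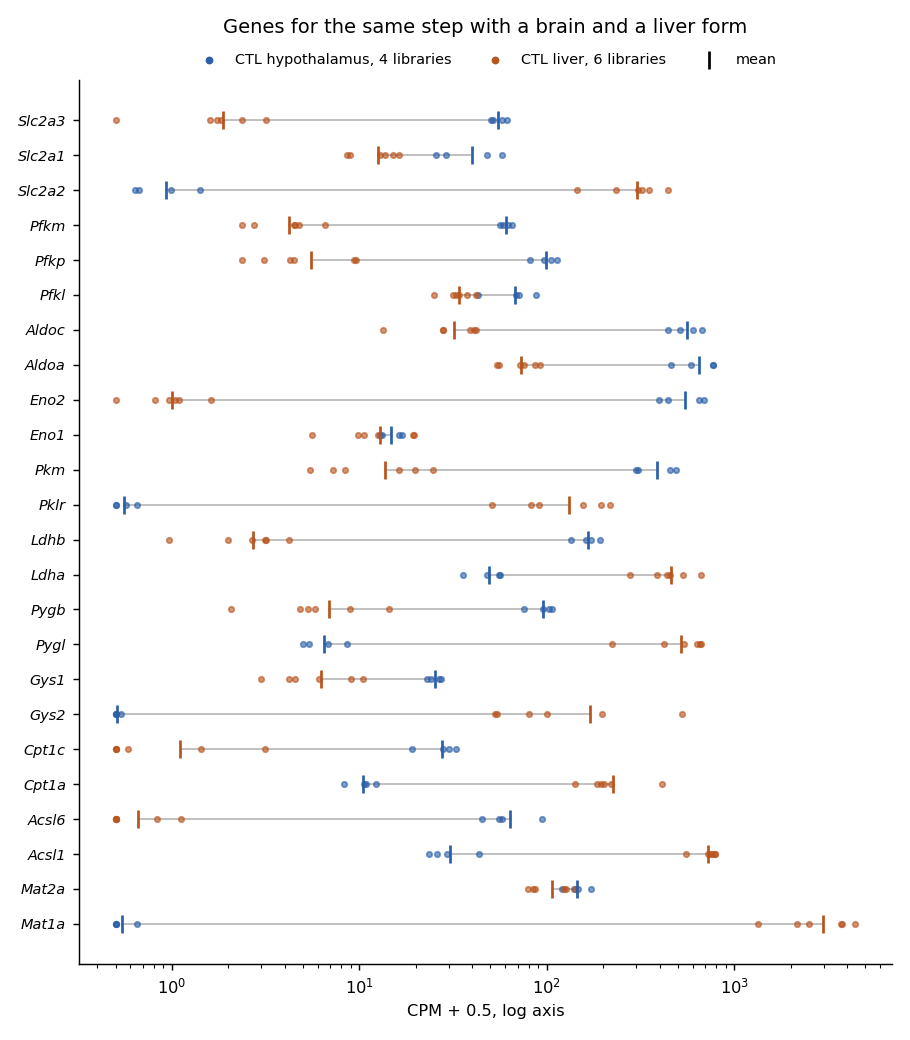
CPM + 0.5 (log axis) of 24 genes that serve a shared metabolic step, with a point for each of the 4 CTL hypothalamus and 6 CTL liver libraries and a bar at each mean. In pairs such as Slc2a3 and Slc2a2, Pkm and Pklr or Ldhb and Ldha the tissues change order, whereas Eno1 and Mat2a overlap.

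Housekeeping genes set the scale on which small differences can be read. Of 37 ribosomal protein genes tested, 29 were called higher in liver, against 30.6% of all genes tested, and none in hypothalamus. Their median log2 fold change was -1.05. With total counts alone, however, 5 were called higher in liver and 2 in hypothalamus, beside 18.8% and 56.3% of all genes tested. Rplp0, of the ribosomal stalk, was at 44.3, 59.7, 68.0 and 43.1 CPM against 193 to 329 CPM (-2.20 ± 0.25, adjusted p = 2.64e-06). Of 7 transcripts of mitochondrial DNA tested, mt-Nd4 and mt-Cytb were called higher in liver, a share near the 30.6% of all genes. Only mt-Nd6 was called higher in hypothalamus, and 4 were not called. Total counts alone gave 3 higher in hypothalamus and none in liver. mt-Nd4, a subunit of complex I, was at 29171, 47094, 47206 and 43369 CPM and 71592 to 95299 CPM, without overlap (-0.99 ± 0.38, adjusted p = 0.0307), but its call was lost without liver 1 and 4 (adjusted p = 0.0662) and in 7 of 10 fits that left out a library, those of liver 1, 2, 5 and 6 and hypothalamus 1, 2 and 4. The mt-Cytb call was lost without hypothalamus 1 (adjusted p = 0.0519). All genes of mitochondrial DNA together took 14.0% to 15.7% of raw counts in hypothalamus and 10.2% to 15.0% in liver. These shares include the mitochondrial ribosomal RNAs, which are not in the list and were higher in hypothalamus. Rplp0 and mt-Nd6 kept their calls and directions under every alternative run, with adjusted p of at most 0.000241 and 3.92e-05.

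The same contrast was fitted in the KO libraries, 4 of hypothalamus and 6 of liver, which share no library with the CTL contrast. There 4726 of 12806 genes (36.9%) were called higher in hypothalamus and 3670 (28.7%) higher in liver. Of the 8883 CTL calls that could be tested in KO, 7885 were called in the same direction and 0 in the opposite one. All 31 pan-neuronal, 20 neuropeptide, 30 secreted protein, 31 coagulation and 26 cytochrome P450 calls that could be tested there were made in the same direction. Lists in which fewer of the CTL calls were made again included the ribosomal proteins, with 21 of 29, the mitochondrial transcripts, with 1 of 3, and the shared macrophage genes, with 0 of 8.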

How the data were processed

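RNA of hypothalamus and liver of CTL mice was sequenced as QuantSeq 3′ libraries. The authors trimmed reads with BBDuk, aligned them with STAR 2.5.0a to GRCm38.p6 while gene counts came from HTSeq 0.6.1, per the labels and methods. The annotation release and the strand setting are not given in the sources used here, so counts of overlapping genes are uncertain. The deposited values are raw counts, of 55401 gene identifiers in each library, 55141 of which were matched to a symbol through the GENCODE annotation of GRCm38, which need not be the authors' release. No libraries held identical values, and no column lacked a sample.

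From these counts, genes were kept by edgeR's filterByExpr (minimum count 10), scaled by TMM and tested with edgeR 4.0.16 (R 4.3.3, limma 3.58.1) by the quasi-likelihood F test with tissue as the only term. Genes past 2-fold were called with glmTreat. P-values were two-sided and adjusted by Benjamini-Hochberg over all 13759 genes, with a threshold of 0.05. Single genes were also tested by an exact permutation test of mean log2(CPM + 0.5) over all 210 splits of 10 libraries, whose smallest p is 0.00476 (scipy 1.17.1, Python 3.11.15). A gene without a count in a tissue is given as a lower bound from 3 counts over that tissue, and a gene with 1 to 3 counts as a ratio with an exact 95% interval (Clopper-Pearson). On simulated counts for 13759 genes with 200 changed, 12% of 2-fold and 86% of 4-fold changes were recovered and 2% of calls were false. The simulated tissues shared an expression profile apart from those 200 genes, whereas 69.5% of genes were called between the real tissues. The simulated shares therefore do not give the recovery or false calls of this contrast.

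The 36 lists (646 genes) and their members were chosen with earlier results of these data known. Lists are described by counts and medians and carry no test. Members nearly absent from a tissue could pass the expression filter only through the other tissue. The direction of such members was fixed by the filter. Named are at most 6 members of a list, first by highest mean CPM in either tissue and then those called against its direction or not called, the 10 most abundant genes of each tissue, the 10 largest called changes each way with separate ranges and 10 or more counts on average in the higher tissue, and the label checks (Cox10, Myl1, sex-linked transcripts). The others were named for their role after their values were seen: Tubb3, Gad1, Gad2, Slc17a6, Slc17a7, Th, Chat, Drd1, Agrp, Npy, Pomc, Hcrt, Crh, Trh, Chga, Chgb, Pcsk1, Pcsk2, Nkx2-1, Sim1, Neurod6, Gfap, Mog, Pdgfra, Folr1, Apoa1, Apoc2, Apoc4, Cyp7a1, Por, Slc2a2, Pklr, Gys2, Got1, Cebpa, Apod, Cst3, Ptgds, Gcgr, Fgf21, Fgfr1, Fgfr4, Klb, Mc4r, Thrb, Dio1, Slc2a3, Hk1, Aldoa, Pkm, Pfkm, Pygb, Gys1, Cpt1a, Cpt1c, Fabp7, Mt3, Ldha, Ldhb, Cox6a2, Rplp0 and mt-Nd6. Alternatives were other scalings and filters, DESeq2 1.42.0, sex terms, subsets of libraries, thinning to 1955599 counts and a replicate block. A fit without both libraries numbered 1 was added after seeing the data. Some genes are not reported here. Promoters come from RefSeq (10602 of 13759 genes matched).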

Additional observations from a re-analysis of the deposited data

Results flagged for a closer look

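A library was set apart here when, for a gene named in the text, its gap to the nearest other library of its tissue took more of the tissue's range than Dixon's critical value at 95% allows (0.829 for 4 libraries and 0.625 for 6). Chance gives about 1 such case in 20 groups, and 184 genes were examined in each tissue. Liver 3 was far above the other livers for Hbb-bs (7466 CPM), Hbb-bt (1814 CPM), Prlr (1046 CPM), Ghr (3530.2 CPM), Mt1 (4541 CPM) and Nrgn (12.3 CPM), and far below them for Rarres2 (200.3 CPM). Liver 4 was far above for Serpina1c (28827 CPM), Psap (966 CPM), Lepr (7.92 CPM) and Cpt1c (2.64 CPM), and liver 5 for Mfsd2a (395 CPM), Gys2 (528 CPM), Cpt1a (409 CPM), Sst (1.49 CPM) and Cox6a2 (4.10 CPM). Liver 2 was far above for Aqp1 (205 CPM), and liver 1 far below for Sall1 (13.8 CPM).

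In hypothalamus, library 4 was far above the other 3 for Gad1 (329 CPM), Scg2 (428 CPM), Mog (58.9 CPM) and Olfml3 (7.68 CPM), and far below them for Ttr (845 CPM). Library 1 was far above for Slc4a4 (231 CPM), Grik2 (387 CPM), mt-Rnr2 (29186 CPM), Cga (8.23 CPM) and Slc16a1 (16.4 CPM), and far below for mt-Nd6 (42.4 CPM). Library 3 was far above for Gnmt (2.75 CPM) and Prox1 (122 CPM).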

How the results depend on the processing

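Over 22 alternatives, 15 of 48 list counts moved by more than 1.5 times in at least 1 of them, and 27 of 175 tested genes named in the text changed their call or direction. The counts that stayed within 1.5 times in every alternative include those of the pan-neuronal, GABA, glutamate, dense-core vesicle, oligodendrocyte, hepatocyte secreted protein, cytochrome P450, Kupffer and sinusoidal endothelium lists. With total counts alone, calls toward liver were 2587 against 4215, erythrocyte calls 3, macrophage calls 3, ribosomal calls 5 toward liver and 2 toward hypothalamus, and mitochondrial calls 0 toward liver and 3 toward hypothalamus. Nr3c1 then stood at 0.73 (adjusted p = 0.0186), and Cox10, Vim, Fgfr3, Hdc, Psap, Eno1, Mat2a, Slc4a4, Nr3c2 and Olfml3, not called on TMM factors, were called higher in hypothalamus. RLE factors left 1 mitochondrial call toward liver.

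Without the expression filter 27 hypothalamic transcription factors, 1 pituitary and 1 exocrine pancreas gene, and 11 endocrine genes were called toward hypothalamus, and 3 muscle, 1 mitochondrial and 18 sex-biased genes toward liver. With at least 10 counts in at least 4 libraries no muscle gene (0) was called toward liver. DESeq2 called 11 endocrine genes toward hypothalamus, and 3 muscle and 18 sex-biased genes toward liver, with 7039 and 4687 genes called in all. Thinning left 5 tanycyte and 3 choroid plexus genes toward hypothalamus and 0 muscle genes toward liver. With labelled sex as a term, 3 erythrocyte, 3 macrophage and 1 mitochondrial gene were called toward liver. Among males that matched their label these counts were 3 erythrocyte, 2 macrophage and 4 muscle genes, and Csf1r turned to 0.0596 (adjusted p = 0.879). Without liver 1 and 4 the counts toward liver were 1 mitochondrial and 5 sex-biased genes.

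The replicate numbers did not pair libraries 2, 3 and 4, which differed in the transcripts that mark sex. Liver 2 to 4 held 450 to 787 Xist counts and at most 1 Y-linked count. Hypothalamus 2 to 4 held 1 Xist count each and 580 to 734 Y-linked counts. Deviations of same-numbered hypothalamus and liver libraries correlated at -0.33, 0.24, -0.18 and -0.45. None of the 4 hypothalamus libraries correlated best with the liver of its own number. Such correlations cannot exclude a shared mouse, so whether the libraries numbered 1 are a pair is not known. A replicate block over libraries 1 to 4 gave 4733 calls toward hypothalamus and 3393 toward liver, with 2 muscle genes toward hypothalamus, 0 muscle and 0 mitochondrial genes toward liver, and Acta1 at 1.51 (adjusted p = 0.0278). Without both libraries numbered 1, an alternative chosen after seeing the data, 3 muscle, 0 mitochondrial and 13 sex-biased genes were called toward liver. Leaving out each library in turn gave 5079 to 5397 calls toward hypothalamus and 3986 to 4210 toward liver. The list counts toward liver then ranged from 3 to 5 for erythrocyte (3 without hypothalamus 1 or 4), 0 to 3 for muscle (0 without liver 2, 3, 5 or 6, and 2 or 3 without any of the hypothalamus libraries), 0 to 2 for mitochondrial (0 without hypothalamus 1, and 1 without hypothalamus 2 or 4 or liver 1, 2, 5 or 6) and 6 to 17 for sex-biased genes (17 without any of the hypothalamus libraries). The cause of these changes was not tested. With a pseudocount of 2 no exact permutation call of a named gene changed. The shallowest library, with 1955599 counts, limits what can be said of genes near 1 CPM, such as Mc4r and Fgf21.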

Other observations

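Of the genes with the largest fitted changes toward hypothalamus, 10 by the naming rule, none had a count in any liver library. Beside Elavl3 they held genes of neuronal surfaces and excitability. Ntng1, a membrane-anchored netrin of axons, was at 465, 293, 297 and 216 CPM in hypothalamus (at least 3040-fold higher, with 3 counts over the liver libraries as the limit). Kirrel3, an adhesion protein of synapses, was at 490.0, 270.4, 201 and 171 CPM (at least 2996-fold higher), and Grik2, a subunit of kainate-type glutamate receptors, at 387, 222, 201 and 216 CPM (at least 2497-fold higher). Unc80, a partner of the sodium leak channel, stood at 122 to 216 CPM, the RNA-binding protein Elavl2 at 111 to 254 CPM and the zinc finger factor Zic1 at 133 to 205 CPM. Nrip3, Nrsn2 and Frmd5, at 162 to 271, 119 to 196 and 109.5 to 261 CPM, completed these 10 genes.

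Toward liver, genes without a count in any hypothalamus library included 3 paralogs of alpha-1-antitrypsin, the plasma inhibitor of elastase. Serpina1c ranged over 9898 to 28827 CPM with a median of 11776 CPM in liver, Serpina1b over 8253 to 15956 CPM with a median of 10101 CPM and Serpina1e over 223 to 11052 CPM with a median of 5392 CPM. Mup3, a major urinary protein, ranged over 1725 to 14884 CPM with a median of 7361 CPM, and Ces1c, a carboxylesterase, over 3718 to 4978 CPM with a median of 4199 CPM. How reads were divided among the near-identical copies of the Serpina1 and Mup families is uncertain, so their separate levels are too.

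Among the most abundant transcripts of hypothalamus, the long noncoding RNA Meg3 stood at 9004, 7999, 6482 and 5073 CPM against 18.7 to 184 CPM with a median of 73.0 CPM in liver (log2 fold change 6.38 ± 0.57, edgeR adjusted p = 2.03e-07). The large mitochondrial ribosomal RNA, mt-Rnr2, was at 29186, 11358, 9040.5 and 10356 CPM against 1940.1 to 6184 CPM with a median of 2678 CPM (2.08 ± 0.47, adjusted p = 0.00114).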
